A study of Mus musculus with 8 samples.

Results

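The ATF4 integrated stress response genes were followed in 8 mouse liver transcriptomes. The set holds 10 gene symbols, taken by name from a count table of 55487 genes: the transcription factors Atf4, Atf5, Ddit3 and Nupr1, the amino acid enzymes Asns and Psat1, and the regulators Trib3, Sesn2, Chac1 and Ppp1r15a. The set was chosen with earlier results of these data known. All animals were male C57Bl/6J mice of about 10 weeks, and livers were taken 4 hours after an oral gavage. Of the libraries, 4 came from mice given 17 mg of potassium sorbate, a food preservative, and 4 came from mice given water, called controls here. Whether every library is from its own mouse is not stated in the labels. The p-values below therefore reflect only library-to-library spread, part of which may be technical. The symbols matched 11 rows of the table, since Ddit3 is listed under a pair of Ensembl identifiers. The second of these (ENSMUSG00000116429) is a transcript of 105 exonic bases that lie wholly within the first, and it was listed at 0 in every library. All 10 symbols therefore had 1 row that could be tested, and all 10 passed the filter on low counts.

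In the integrated stress response, kinases that sense amino acid shortage, haem shortage, double-stranded RNA or misfolded protein in the endoplasmic reticulum phosphorylate the translation initiation factor eIF2 on its alpha subunit. General protein synthesis then slows, while the Atf4 mRNA is translated more. ATF4 is a basic leucine zipper protein that pairs with C/EBP factors and drives genes of amino acid synthesis and transport, together with feedback regulators that end the response. Since ATF4 is controlled largely at translation, its mRNA level need not follow its protein level, and no protein was measured here.

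The groups had like depths, and 1 control library stood apart. Total counts ran from 15773932 to 25844731 in the sorbate libraries and from 17725351 to 22183016 in the controls, and their means did not differ in a two-sided exact permutation test (p = 0.971). On the first principal component, which held 53.6% of the variance between libraries, the sorbate libraries scored 21.9 to 37.8, control 2 scored 15.4 and controls 1, 3 and 4 scored −49.1 to −42.1. Whether the label of control 2 is right, or its sampling differed, cannot be told from the files, so it was kept as labelled and enters every control mean and call below unless stated. Of 10 hepatocyte markers all were detected, and their summed level was 98518 to 121326 CPM (read counts relative to the scaled size of the library) with sorbate and 104752 to 121541 CPM in the controls. Of 11 Kupffer cell markers 7 were called lower with sorbate, where 6.3% of all genes tested were. Also called lower were 4 of 5 tested erythroid, 2 of 4 tested bile duct and 1 of 1 tested neutrophil markers. The same held for 1 of 11 endothelial and stellate and 1 of 10 hepatocyte markers, and none of these types had a marker called higher. Kupffer cell markers summed to 200.4 to 389.8 CPM with sorbate, 280.6 CPM in control 2 and 521.9 to 678.7 CPM in the other controls. Neutrophil markers summed to 0.487 to 1.47 CPM with sorbate, 1.06 CPM in control 2 and 13.01 to 24.8 CPM in the other controls, bile duct markers to 27.6 to 42.4 CPM, 52.0 CPM and 123.3 to 248.4 CPM, and erythroid markers to 251.0 to 372.8 CPM, 331.3 CPM and 527.3 to 1375 CPM in the same order. Endothelial and stellate markers summed to 225.5 to 330.0 CPM with sorbate, 208.4 CPM in control 2 and 315.8 to 367.1 CPM in the other controls. Pancreas is known for high Asns, and of 13 pancreatic acinar markers 7 were at 0 in all libraries, among them Cpa1, Cpb1, Pnlip and Prss2, while the rest summed to 22.7 to 33.1 CPM with sorbate, 37.6 CPM in control 2 and 11.3 to 21.8 CPM in the other controls. The part of these cell types in the results on the stress response genes was not tested.

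Asns, Psat1 and Atf5 fell with sorbate, and no member rose past the threshold. Asns fell 4.54-fold, Psat1 3.18-fold and Atf5 2.34-fold, while Atf4 itself had a log2 fold change of −0.34 that did not pass. The 3 calls are those with an adjusted p under 0.05 in edgeR's quasi-likelihood test over 13312 genes, where 12.4% of all genes were called and 6.3% were called lower. Of the 10 members, 7 had a negative and 3 a positive log2 fold change, with a median of −0.40 beside −0.02 over all genes tested. Because the members were chosen with earlier results of these data known, their counts and median are not those of an unselected set. By DESeq2, 3 members were lower and 1, Trib3, was higher, where 9.53% of all genes with an adjusted p were lower and 9.26% higher. At an unadjusted p under 0.05 edgeR counted 4 of the 10 members, and 29.5% of all genes. In bulk tissue, fewer cells of a type and less RNA per cell cannot be told apart. Control 2 bore on the count of calls: without it 5 members were lower and 1 was higher, where 29.3% of all genes were called, 14.1% lower and 15.1% higher. Control 2 was set apart for lying near the sorbate libraries, so larger differences without it follow in part from that choice. With 1 surrogate variable as covariate, an estimate of unlabelled variation added after seeing the data, 2 members, Asns and Atf5, were lower, where 4.55% of all genes were called and 2.2% were called lower. This variable was 0.084 to 0.305 in the sorbate libraries, 0.471 in control 2 and −0.532 to −0.365 in the other controls. It thus runs partly with the group, and fitting it can take away part of the difference between sorbate and control.

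**Figure D1:**
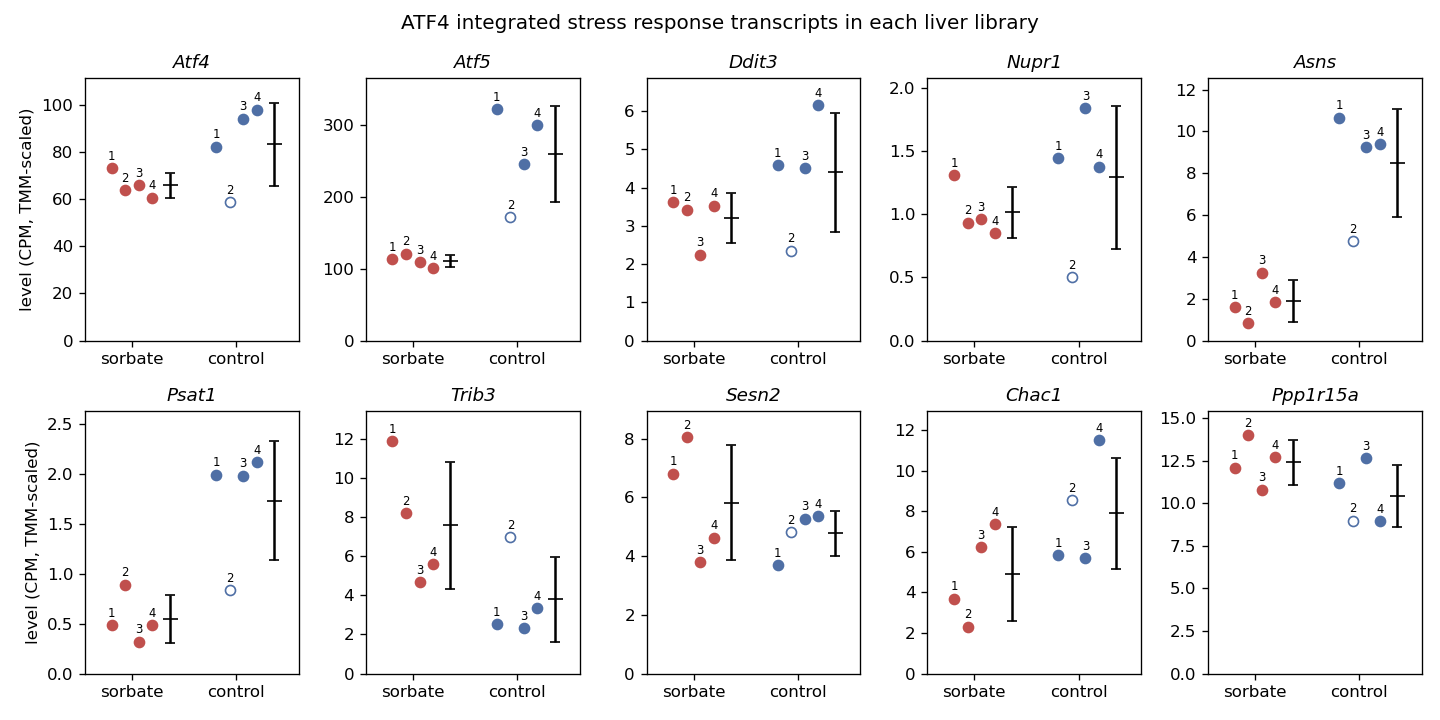
Level of each of the 10 members in each library, in CPM after TMM scaling (vertical axes from 0), with the 4 sorbate libraries left and the 4 controls right, numbered by library. Control 2 is the open point, and the bar beside each group is its mean with its SD (n = 4). All sorbate points lie under all control points for Atf5 and Asns, and control 2 lies nearest to the sorbate points in Asns, Psat1 and Atf5.

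Asparagine synthetase, Asns, makes asparagine from aspartate and glutamine and is a textbook ATF4 target. The gene lies on chromosome 6 (ENSMUSG00000029752, 7675169 to 7693254, GRCm38, 13 exon blocks). Its level was 1.61, 0.845, 3.25 and 1.83 CPM in sorbate libraries 1 to 4, against 10.65, 4.75, 9.24 and 9.40 CPM in controls 1 to 4. Every sorbate library was below every control, and control 2 was the control nearest to them. The log2 fold change was −2.18 (SE 0.37, 95% interval −3.00 to −1.36; edgeR adjusted p = 0.00601). The 16 alternative settings all kept the call, with log2 fold changes from −2.59 to −1.75 and adjusted p from 2.123e-07 to 0.0302.

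Phosphoserine aminotransferase, Psat1, catalyses the second step of serine synthesis from a glycolytic intermediate. It lies on chromosome 19 (ENSMUSG00000024640, 15904678 to 15947337) and was the scarcest member per exon length, with 7 to 20 reads per sorbate library and 15 to 43 per control. Its level was 0.486, 0.889, 0.320 and 0.487 CPM with sorbate, against 1.99, 0.838, 1.98 and 2.115 CPM in the controls. The groups overlapped through control 2, which lay below sorbate 2, while the other controls lay above every sorbate library. Its log2 fold change was −1.67 (SE 0.40, 95% interval −2.54 to −0.79; edgeR adjusted p = 0.0234). This call was lost without sorbate 1, sorbate 3, sorbate 4, control 1, control 3 or control 4 (edgeR adjusted p up to 0.0718; log2 fold changes −2.01 to −1.48 over all 8 leave-outs), and with the surrogate variable (log2 fold change −0.95, edgeR adjusted p = 0.209). Phgdh, which encodes the enzyme of the first step of the same pathway, was too low to be tested.

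Among the transcription factors, Atf5 fell and the others did not pass the test. Atf5 encodes a leucine zipper protein related to ATF4 that is abundant in liver and is known for the mitochondrial stress response. It lies on chromosome 7 (ENSMUSG00000038539, 44812256 to 44816658), and 4.11% of its 1993 exonic bases overlap Il4i1 or Nup62 on the opposite strand, whose reads cannot be told apart where counting ignores strand. Atf5 had 113, 121, 109 and 101 CPM in the sorbate libraries, against 321, 171, 245 and 299 CPM in the controls. The groups did not overlap, and the sorbate libraries lay within 1.20-fold of each other. The log2 fold change was −1.22 (SE 0.18, 95% interval −1.62 to −0.83; edgeR adjusted p = 0.00314), and all 16 alternatives kept the call, from −1.37 to −0.84. Groups that do not overlap in the lower direction were found for 2 of the 10 members, Atf5 and Asns, and for 8.32% of all genes tested. None of the 10 members lay wholly above the controls, which held for 9.42% of all genes.

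Atf4 lies on chromosome 15 (ENSMUSG00000042406, 80255184 to 80257541). Its level was 73.1, 63.7, 66.0 and 60.6 CPM with sorbate, against 82.3, 58.9, 94.1 and 98.0 CPM in the controls. Controls 1, 3 and 4 were above every sorbate library, and control 2 was below all of them. The log2 fold change of −0.34 had a 95% interval from −0.68 to 0.00085 (SE 0.15; edgeR adjusted p = 0.170). Without control 2 it was −0.46 and passed (edgeR adjusted p = 0.00824), as it did in limma-voom with quality weights (−0.43, adjusted p = 0.0178), whereas with the surrogate variable it was −0.06 (edgeR adjusted p = 0.871).

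Ddit3, on chromosome 10 (ENSMUSG00000025408, 127290774 to 127296288), encodes CHOP, a C/EBP-family factor linked to cell death under lasting stress. Ddit3 stood at 3.625, 3.42, 2.24 and 3.53 CPM with sorbate, against 4.58, 2.35, 4.50 and 6.15 CPM in the controls, so the groups overlapped through control 2. Its log2 fold change was −0.46 (SE 0.28, 95% interval −1.09 to 0.17; edgeR adjusted p = 0.310). It passed only without control 2 among the 16 alternatives (−0.65, edgeR adjusted p = 0.0432), and with the surrogate variable its sign was positive (0.11, edgeR adjusted p = 0.868). Of its 1713 exonic bases 6.13% are shared with the second Ddit3 entry on the same strand and 4.73% with Gm4189 or the methionyl-tRNA synthetase gene on the other strand, where reads could be discarded or misplaced.

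Nupr1, on chromosome 7 (ENSMUSG00000030717, 126623249 to 126630861), encodes a small stress-induced chromatin protein. It was near the lower end of the range, at 1.31, 0.934, 0.961 and 0.852 CPM with sorbate, against 1.44, 0.503, 1.84 and 1.38 CPM in the controls. Control 2 held the lowest level of all 8 libraries and the other controls held the highest 3. The log2 fold change of −0.35 (SE 0.37, 95% interval −1.16 to 0.47; edgeR adjusted p = 0.564) did not pass in any alternative, and it was 0.45 with the surrogate variable.

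None of the 4 regulators and effectors passed the test. Trib3 encodes a pseudokinase that ATF4 induces and that restrains ATF4 and Akt signalling (ENSMUSG00000032715, chromosome 2, 152337422 to 152344032). Its level was 11.9, 8.22, 4.67 and 5.60 CPM with sorbate, against 2.54, 6.98, 2.32 and 3.345 CPM in the controls. Every sorbate library was above controls 1, 3 and 4, and control 2 lay among the sorbate libraries. Between groups the log2 fold change was 1.02 (SE 0.39, 95% interval 0.16 to 1.87), and the adjusted p of 0.109 in edgeR's test missed the threshold. Trib3 passed in DESeq2 (1.01, adjusted p = 0.0457), in limma-voom with quality weights (1.41, adjusted p = 0.0170) and without control 2 (1.496, edgeR adjusted p = 0.00427). Over the other leave-outs and alternatives it did not pass, and it was 0.63 with the surrogate variable (edgeR adjusted p = 0.370).

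Sestrin 2, Sesn2 (ENSMUSG00000028893, chromosome 4), is a leucine sensor that restrains the growth kinase complex mTORC1. It had 6.80, 8.05, 3.80 and 4.625 CPM with sorbate, against 3.68, 4.80, 5.27 and 5.36 CPM in the controls. Sorbate 1 and 2 were above every control, and sorbate 3 and 4 lay within the range of the controls (log2 fold change 0.29, 95% interval −0.26 to 0.83; edgeR adjusted p = 0.465). Chac1 (ENSMUSG00000027313, chromosome 2) encodes an enzyme that degrades glutathione. Chac1 stood at 3.70, 2.31, 6.22 and 7.36 CPM with sorbate, against 5.825, 8.55, 5.705 and 11.5 CPM in the controls. Here sorbate 1 and 2 were below every control and sorbate 3 and 4 overlapped them (log2 fold change −0.70, 95% interval −1.47 to 0.07; edgeR adjusted p = 0.209). Ppp1r15a (ENSMUSG00000040435, chromosome 7) encodes GADD34, the stress-induced subunit that directs a phosphatase to eIF2 alpha. It varied least of the regulators among the sorbate libraries, at 12.1, 14.0, 10.8 and 12.7 CPM with sorbate, against 11.2, 8.99, 12.7 and 8.95 CPM in the controls (log2 fold change 0.25, 95% interval −0.08 to 0.57; edgeR adjusted p = 0.296). None of Sesn2, Chac1 and Ppp1r15a passed in any of the 16 alternatives, and the intervals leave room for differences in either direction.

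**Figure D2:**
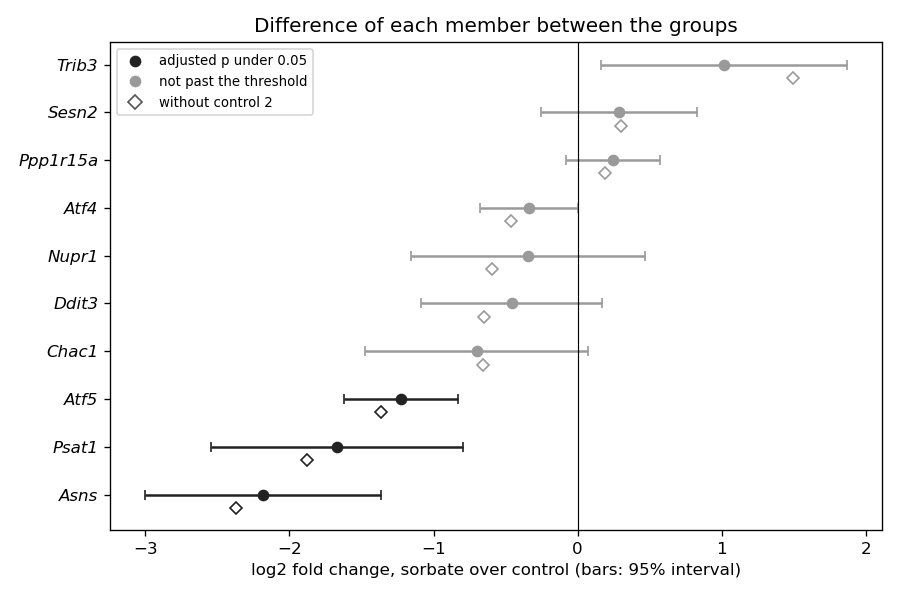
Log2 fold change of each member, sorbate over control, with its 95% interval from edgeR (filled points, dark where the adjusted p was under 0.05), and the value without control 2 (open diamonds). Asns at −2.18, Psat1 at −1.67 and Atf5 at −1.22 lie apart from Trib3 at 1.02, and leaving out control 2 moved 8 of the 10 values farther from 0. Since control 2 was set apart for lying near the sorbate libraries, that direction follows in part from the choice.

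Promoter sequence was read for all 10 members from RefSeq's table on GRCm38.p6, in 12 windows of 300 bases that run from 250 before to 50 after an annotated start, since ATF4 is known to bind an element that joins ATF and C/EBP sites. The element was searched as TGATGNAA on both strands (TGATGNAAN adds 1 free base and is contained in it), and the cAMP response element as its palindrome TGACGTCA. Of the 12 member windows 4, each of a different member, held TGATGNAA, where 3.97% of all 32851 promoter windows did. TGACGTCA was held by 1 of the 12, where 1.79% of all windows held it. The members were chosen by name as ATF4 response genes, so their share is not that of an unselected set. The 250 bases before the start are printed for the 4 members whose match lies there, 5′ to 3′ on the gene's strand with the match in capitals, and for Trib3 the 28 bases around its match at bases 15 to 22 past the start.
Asns (chr6:7693210-7693459, minus strand): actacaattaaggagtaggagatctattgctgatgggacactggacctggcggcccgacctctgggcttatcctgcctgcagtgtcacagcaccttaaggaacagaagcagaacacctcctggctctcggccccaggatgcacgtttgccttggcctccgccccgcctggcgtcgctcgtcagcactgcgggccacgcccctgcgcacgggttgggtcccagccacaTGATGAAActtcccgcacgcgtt
Chac1 (chr2:119350992-119351241, plus strand): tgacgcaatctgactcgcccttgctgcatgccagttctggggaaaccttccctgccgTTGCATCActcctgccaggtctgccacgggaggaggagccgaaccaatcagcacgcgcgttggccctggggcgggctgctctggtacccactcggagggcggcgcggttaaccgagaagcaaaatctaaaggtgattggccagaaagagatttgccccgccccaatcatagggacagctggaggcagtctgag
Nupr1 (chr7:126625471-126625720, minus strand): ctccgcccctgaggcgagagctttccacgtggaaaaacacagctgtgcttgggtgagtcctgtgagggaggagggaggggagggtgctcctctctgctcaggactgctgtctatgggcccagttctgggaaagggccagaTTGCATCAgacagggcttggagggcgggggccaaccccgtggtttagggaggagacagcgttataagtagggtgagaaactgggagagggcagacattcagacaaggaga
Ppp1r15a (chr7:45526269-45526518, minus strand): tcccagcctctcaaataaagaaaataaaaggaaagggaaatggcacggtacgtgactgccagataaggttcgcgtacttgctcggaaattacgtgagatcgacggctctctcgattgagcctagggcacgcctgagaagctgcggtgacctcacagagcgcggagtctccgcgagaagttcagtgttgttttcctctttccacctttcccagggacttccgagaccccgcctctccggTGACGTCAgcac
Trib3 (chr2:152344029-152344056, minus strand): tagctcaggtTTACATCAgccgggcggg
The match lay 23 to 16 bases before the start in Asns, 193 to 186 before it in Chac1 and 110 to 103 before it in Nupr1, and TGACGTCA lay 12 to 5 bases before the start in Ppp1r15a. These places count from RefSeq's start, which can differ from the start in the GENCODE gene coordinates given above. By those coordinates the matches of Asns and Nupr1 lie within the gene, and that of Trib3 lies before it. The members with TGATGNAA thus include Asns, which fell, and Trib3, Chac1 and Nupr1, which did not pass, with log2 fold changes of 1.02, −0.70 and −0.35. Psat1 and Atf5, which fell, hold neither word in their windows. A match in these letters is no evidence of binding, and elements outside the windows were not searched.

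Members also differed within a library, in a measure that no scaling between libraries enters. For each 100 reads of Asns there were 741.9, 973.7, 143.7 and 306.7 reads of Trib3 in sorbate libraries 1 to 4, against 23.8, 147.1, 25.1 and 35.6 in controls 1 to 4. Both genes carry TGATGNAA in the windows above. Every sorbate library lay above controls 1, 3 and 4 by this ratio, and control 2 lay just above sorbate 3. Per 100 reads of Atf4, Asns had 2.20, 1.33, 4.92 and 3.01 reads with sorbate, against 12.95, 8.07, 9.81 and 9.59 in the controls, which do not overlap. Atf5 had 155.1, 189.3, 165.4 and 166.0 reads per 100 of Atf4 with sorbate, against 390.3, 291.1, 259.9 and 305.3 in the controls, again without overlap. Psat1 per 100 reads of Atf4 also lay below every control, though narrowly (0.485 to 1.396, against 1.423 to 2.42). Ppp1r15a lay above every control (16.35 to 21.98, against 9.14 to 15.28), and Trib3, Chac1, Sesn2, Ddit3 and Nupr1 overlapped. In CPM the groups overlapped for both Psat1 and Ppp1r15a, so their separation by ratio also draws on the level of Atf4. That level was lowest in control 2 (58.9 CPM) and highest in the other controls (82.3 to 98.0 CPM). The share of all genes without overlap by this ratio was not computed. These ratios were formed after the values of the genes were seen and carry no test.

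**Figure D3:**
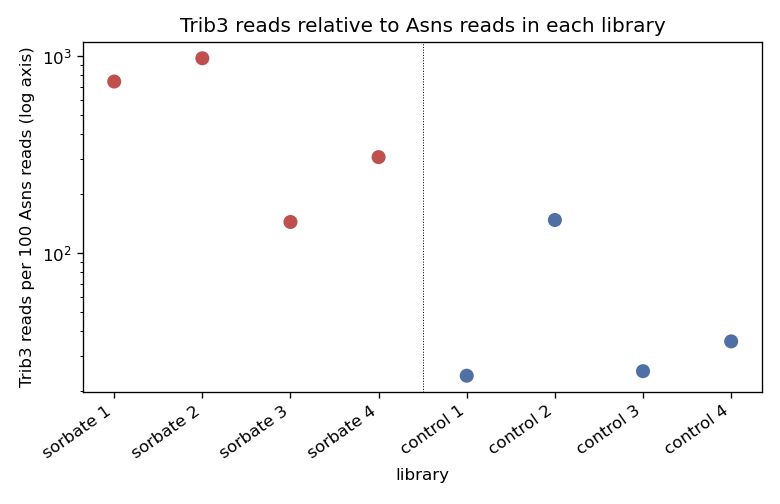
Reads of Trib3 per 100 reads of Asns in each library (log axis), sorbate libraries left of the dotted line and controls right of it. The sorbate libraries run from 143.7 to 973.7, controls 1, 3 and 4 from 23.8 to 35.6, and control 2 stands at 147.1.

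Levels of different genes were compared per length, as CPM divided by the kilobases of merged exons (RPKM). Merged exons hold every annotated transcript, so a gene with long minor transcripts is understated. Atf5 was the most abundant member, at 55.7 ± 4.18 RPKM with sorbate and 130.0 ± 33.5 RPKM in the controls (SD, n = 4 each), and Atf4 followed at 27.9 ± 2.25 and 35.3 ± 7.47 RPKM. With sorbate came Ppp1r15a (4.22 ± 0.454 RPKM), Trib3 (3.58 ± 1.53), Chac1 (2.99 ± 1.41), Ddit3 (1.87 ± 0.378) and Sesn2 (1.67 ± 0.562), where each overlapped its neighbours in this order by mean ± SD. Asns (0.688 ± 0.367 RPKM) and Nupr1 (0.403 ± 0.0802) also overlapped by their SD, and Psat1 (0.128 ± 0.0569) was below both. In the controls the order after Atf4 was Chac1 (4.82 ± 1.68 RPKM), Ppp1r15a (3.56 ± 0.617), Asns (3.11 ± 0.945), Ddit3 (2.56 ± 0.912), Trib3 (1.79 ± 1.02) and Sesn2 (1.38 ± 0.222), where neighbours again overlapped by mean ± SD, and then, below Sesn2, Nupr1 (0.513 ± 0.224) and Psat1 (0.407 ± 0.141). Asns thus ranked after Sesn2 with sorbate and before Ddit3 in the controls.

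Spread between libraries set the members apart as well. Within the sorbate group, the SD of the log2 level was 0.11 for Atf4 and for Atf5 and 0.15 for Ppp1r15a, against 0.75 for Asns, 0.74 for Chac1 and 0.59 for Trib3. Within the controls it was largest for Nupr1 (0.75) and Trib3 (0.70). Without control 2 the SD among controls dropped to 0.05 for Psat1 and 0.11 for Asns, and it was 0.57 for Chac1, with control 4 at 11.5 CPM and controls 1 and 3 at 5.825 and 5.705 CPM. Read depth enters these SDs and was not corrected for. Controls 1, 3 and 4 held only 40, 41 and 43 reads of Psat1, and the sorbate libraries held 19 to 71 reads of Asns against 996 to 1956 of Atf4.

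By the root mean square difference of log2 levels over the 8 libraries, each gene centred on its mean, the genes closest to Atf4 among 9056 compared were Mlx (0.0826), Med19 (0.0835) and Hmces (0.0858). The closest member was Ddit3, at 0.266, and Asns was farthest at 1.06. For Atf5, the member with the lowest p, the closest genes were Fbxo6 (0.108), Tmem176a (0.137) and Ppil1 (0.142), all of which fell (log2 fold changes −1.22, −1.13 and −1.07; edgeR adjusted p = 0.00228, 0.00908 and 0.00843). Since the distance spans both groups, genes this close to Atf5 carry nearly its group difference by selection, and their fall is no separate result. The closest member to Atf5 was Psat1, at 0.361, and Trib3 was farthest at 1.33.

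Genes around the pathway were read from 10 lists, in which 158 genes besides the members were tested: 16 were higher and 23 lower with sorbate, with a median log2 fold change of −0.15. As shares these are 10.1% and 14.6%, beside 6.14% and 6.3% of all genes tested. The lists, like the members, were chosen with earlier results of these data known, so these shares are not those of an unselected set. Single libraries moved these counts: 5 were higher and 11 lower without sorbate 3 or without control 3, and 23 were higher and 53 lower without control 2. Over all genes, 818 higher and 838 lower became 410 and 370 without sorbate 3 and 332 and 357 without control 3. Without control 2, 15.1% of all genes were higher and 14.1% lower. Counts by setting in each list below are to be read beside these. Upstream, 1 of 18 genes of the eIF2 alpha kinases and the eIF2 core rose and 1 fell, with a median of −0.19, and without control 2 the counts were 2 and 6. Ppp1r15b, the constitutive paralogue of Ppp1r15a, rose to 118.4 ± 16.6 CPM with sorbate, against 77.7 ± 6.18 CPM in the controls (SD, n = 4 each; log2 fold change 0.61, SE 0.12, edgeR adjusted p = 0.0114), in all 16 alternatives. The adaptor gene Nck1 was lower (−0.47, SE 0.11, edgeR adjusted p = 0.0210), a call lost without any 1 library other than control 2 (adjusted p up to 0.0669).

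Of 18 tested leucine zipper partners and related factors 4 rose and 1 fell (median 0.09), while 1 or 2 were higher without any 1 library other than control 2. Nfe2l2, which encodes the antioxidant factor NRF2, rose to 51.9 ± 7.03 CPM, against 30.7 ± 2.22 CPM in the controls (SD, n = 4 each; log2 fold change 0.76, SE 0.12, edgeR adjusted p = 0.00409), in all 16 alternatives. Creb3l3, a liver factor of lipid metabolism cleaved at the Golgi, was higher by 0.53 (SE 0.13, edgeR adjusted p = 0.0243) and Atf7 by 0.52 (SE 0.14, edgeR adjusted p = 0.0366). The call of Creb3l3 was lost without sorbate 1, 3 or 4 or control 1 or 3 (adjusted p up to 0.0877), and that of Atf7 without any library but control 2 (adjusted p up to 0.113).

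Serine, glycine and one-carbon genes moved in both directions: of 12 tested, 3 rose and 3 fell, with a median of 0.23, and without sorbate 3, sorbate 4, control 3 or control 4 the counts were 1 and 1. Mthfd2, a mitochondrial folate enzyme, fell to 0.972, 1.78, 0.778 and 0.730 CPM in the sorbate libraries, against 3.68, 1.68, 4.35 and 5.02 CPM in the controls. Control 2 again lay at the level of the sorbate group (log2 fold change −1.78, SE 0.39, edgeR adjusted p = 0.0167), and the call was lost without sorbate 1, 3 or 4 or control 3 or 4 (adjusted p up to 0.0551). Aldh18a1, which starts proline synthesis from glutamate, fell by 1.77 on the log2 scale (SE 0.36, edgeR adjusted p = 0.0131) in all 8 leave-outs, but did not pass with the surrogate variable (adjusted p = 0.0812). Gpt2, a mitochondrial alanine transaminase, rose to 507.3 ± 57.5 CPM, against 298.8 ± 39.2 CPM in the controls (SD, n = 4 each; log2 fold change 0.76, SE 0.14, edgeR adjusted p = 0.00752), in all 16 alternatives.

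Aminoacyl-tRNA synthetases, which load amino acids on tRNAs and include known ATF4 targets, had 0 of 20 higher and 4 lower, with a median of −0.31. The lower count was 2 without sorbate 1, sorbate 3, sorbate 4 or control 3 and with the surrogate variable, 11 in limma-voom and 13 without control 2. Over all genes, 838 lower became 1944 in limma-voom, and 14.1% were lower without control 2. Tars fell to 80.7 ± 9.63 CPM, against 161.8 ± 17.5 CPM in the controls (SD, n = 4 each; log2 fold change −1.004, SE 0.12, edgeR adjusted p = 0.00153), and Cars had a log2 fold change of −0.9996 (SE 0.19, edgeR adjusted p = 0.0103). Both held in all 16 alternatives. Nars was lower by a log2 fold change of −0.52 (SE 0.11, edgeR adjusted p = 0.0168), a call lost without sorbate 1, 3 or 4 or control 3 (adjusted p up to 0.0603). Among 10 tested amino acid transporters 3 rose and 1 fell (median 0.16). Slc1a4, a carrier of alanine, serine and cysteine, fell to 1.68, 3.56, 2.29 and 1.64 CPM with sorbate, against 19.5, 2.96, 12.3 and 13.5 CPM in the controls. Control 2 lay within the sorbate range (log2 fold change −2.39, SE 0.48, edgeR adjusted p = 0.0115), and the value was −1.03 with the surrogate variable. The glycine carrier Slc6a9 rose by 1.10 on the log2 scale (SE 0.14, edgeR adjusted p = 0.00199) and Slc38a7, a lysosomal carrier of glutamine, by 0.57 (SE 0.12, edgeR adjusted p = 0.0119), both in all 8 leave-outs. With the surrogate variable Slc38a7 did not pass (edgeR adjusted p = 0.0590).

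Other reported ATF4 targets gave 2 higher and 1 lower of 27 tested, with a median of −0.0049, and without control 2 the counts were 3 and 5. In that setting 15.1% of all genes were higher and 14.1% lower. Ndrg1, a stress-responsive gene, fell to 4.85 ± 0.734 CPM, against 22.7 ± 9.71 CPM in the controls (SD, n = 4 each; log2 fold change −2.22, SE 0.30, edgeR adjusted p = 0.00223), with 10.5 CPM in control 2 and 21.9 to 34.1 CPM in the other controls. Gabarapl1, an autophagosome protein, was higher by 0.71 (SE 0.16, edgeR adjusted p = 0.0181), and Bcl2l11, which encodes the death-promoting protein BIM, by 0.88 (SE 0.21, edgeR adjusted p = 0.0224). The call of Gabarapl1 was lost without sorbate 1 or 3 or control 3 or 4 (adjusted p up to 0.0646), and that of Bcl2l11 in 6 of 8 leave-outs, all but those of control 2 and sorbate 1 (adjusted p up to 0.0730).

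Endoplasmic reticulum chaperones and folding factors, which the ATF6 and XBP1 arms of the unfolded protein response drive, had 0 of 24 higher and 9 lower (37.5%, beside 6.3% of all genes), with a median of −0.47. The lower count was 4 without sorbate 3, sorbate 4, control 3 or control 4 and with the surrogate variable, 5 without sorbate 2 or control 1, 16 in limma-voom and 15 without control 2. Over all genes, 838 lower became 1944 in limma-voom, and 14.1% were lower without control 2. Sdf2l1 fell to 15.8 ± 4.97 CPM, against 39.2 ± 10.1 CPM in the controls (SD, n = 4 each; log2 fold change −1.31, SE 0.25, edgeR adjusted p = 0.00973). Sec61b, a subunit of the translocation channel, fell by 0.73 on the log2 scale (SE 0.11, edgeR adjusted p = 0.00406), and Pdia4, a disulfide isomerase, by 0.67 (SE 0.12, edgeR adjusted p = 0.00723). For all 3 the groups did not overlap, control 2 included, and all 16 alternatives kept the call.

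Of 10 mitochondrial stress genes 1 rose and 1 fell (median 0.19). Clpx, the unfoldase of a matrix protease, fell to 73.8, 73.7, 56.3 and 73.5 CPM with sorbate, against 193.7, 197.4, 169.4 and 217.8 CPM in the controls. Unlike in Asns or Psat1, control 2 stood among the other controls, and Clpx had the lowest adjusted p among the genes named here (log2 fold change −1.49, SE 0.13, edgeR adjusted p = 3.123e-04). The matrix protease gene Lonp1 was higher by 0.38 (SE 0.10, edgeR adjusted p = 0.0316), a call lost without any library but controls 1 and 2 (adjusted p up to 0.1003).

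Partners of Sesn2 in amino acid sensing by mTORC1 gave 2 higher and 1 lower of 16, with a median of 0.13. Sec13, a subunit of a complex upstream of mTORC1, fell by 0.56 on the log2 scale (SE 0.11, edgeR adjusted p = 0.0120) in all 8 leave-outs, but did not pass with the surrogate variable (adjusted p = 0.0629). Fnip1, a partner of folliculin, was higher by 0.86 (SE 0.20, edgeR adjusted p = 0.0226), with 40.9 CPM in control 2, 19.5 to 25.2 CPM in the other controls and 43.6 to 52.8 CPM with sorbate, and Rragc, a lysosomal GTPase, by 0.34 (SE 0.10, edgeR adjusted p = 0.0478). The calls of Fnip1 and Rragc were each lost in 6 of 8 leave-outs, all but those of control 2 and sorbate 1 for Fnip1 and of control 2 and sorbate 2 for Rragc (adjusted p up to 0.0766 and 0.137). Among 8 tested genes of glutathione synthesis and turnover 0 rose and 1 fell (median −0.11), namely Ggct, a cyclotransferase that acts on gamma-glutamyl amino acids (log2 fold change −0.77, SE 0.20, edgeR adjusted p = 0.0313). Its call was lost without sorbate 1, 3 or 4 or control 3 or 4 (adjusted p up to 0.0948).

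**Figure D4:**
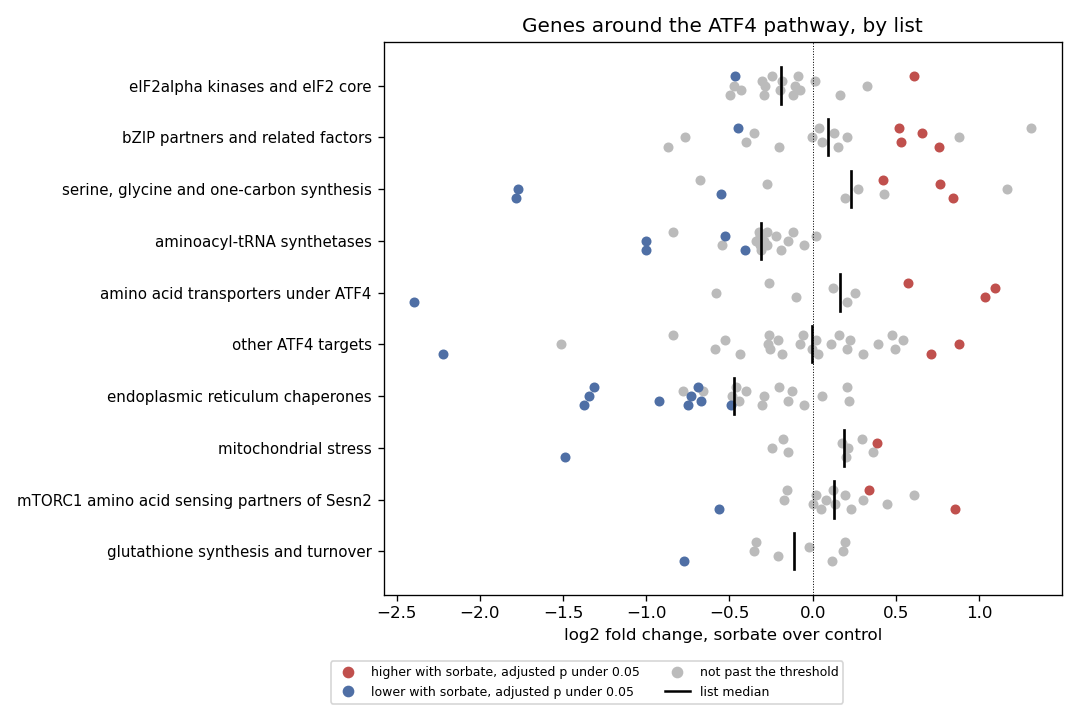
Log2 fold change, sorbate over control, of each tested gene in the 10 lists around the pathway (points; red higher and blue lower at an adjusted p under 0.05, grey not past the threshold), with the list median as a black line. Endoplasmic reticulum chaperones have the lowest median, −0.47, with 9 blue points and 0 red ones, while the one-carbon and transporter lists hold points of both colours.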

How the data were processed

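The deposited table holds raw counts, whole numbers of reads per gene, for 55487 genes. Per the labels' protocols, poly(A) RNA of snap-frozen liver went into single-read TruSeq libraries. FastQC, Subread, edgeR and HISAT2 2.1.0 were the tools named per the submitters' processing notes, and GRCm38 was the build. No source used here gives the annotation release, the counting settings or the use of strand. Columns were matched to samples by name, and 4 per-sample columns with no sample were not used.

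The edgeR filter filterByExpr (count minimum 10) kept 13312 genes, with at least 99.884% of each library's counts. Libraries were TMM-scaled, and sorbate was compared with control by the quasi-likelihood test of edgeR 4.0.16 under R 4.3.3. P-values were two-sided and adjusted over the whole tested table (Benjamini-Hochberg), with a threshold of 0.05. Log2 fold changes are unshrunk, and their SE derives from the F statistic. Alternatives were DESeq2 1.42.0, limma 3.58.1 (voom), other scalings and filters, leave-outs, a threshold of 0.1 and, chosen after seeing the data, a surrogate variable (sva 3.50.0). Library pairs within a group differed beyond sampling noise (chi-square per gene 25.1 to 240.8). Coordinates and exons come from GENCODE vM21 (GRCm38).

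The members and lists were chosen with earlier results of these data known. Named were all members and, per pathway list, up to 3 called genes of lowest p.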

Additional observations from a re-analysis of the deposited data

Results flagged for a closer look

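Outlying libraries were sought in 36 named genes, in 72 groups of 4 libraries, by the gap to the nearest library over the range of the group. The test flags about 1 in 20 such groups by chance, and here it flagged 3. The 3 of 72 groups do not exceed that rate. The groups share the same libraries, and many of the genes were named for a low p, so the rate is only a rough guide here. Psat1 stood at 0.838 CPM in control 2, far from the 1.98 to 2.115 CPM of the other controls and within the sorbate range of 0.320 to 0.889 CPM. Ddit3 stood at 2.24 CPM in sorbate 3, below the 3.42 to 3.625 CPM of the other sorbate libraries. Clpx stood at 56.3 CPM in sorbate 3, below the 73.5 to 73.8 CPM of the other sorbate libraries.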

How the results depend on the processing

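All settings below are for sorbate against control. Among members, DESeq2 and limma-voom with quality weights each called 1 higher in place of 0, and over the leave-outs 0 to 1 were higher and 2 to 5 lower, the upper ends without control 2. Among all genes, 818 were higher and 838 lower: scaling by library size alone gave 1300 and 550 (70.3% of calls higher in place of 49.4%, with the median log2 fold change at 0.11 in place of −0.02), limma-voom 1968 and 1944, the surrogate variable 313 and 293, a threshold of 0.1 gave 1337 and 1414, and the leave-outs 332 to 2053 and 357 to 1915. Without control 2, 1654 of the 1656 calls were kept. Among the genes of the 10 lists, 16 higher and 23 lower became 4 and 9 with the surrogate variable, 48 lower with limma-voom, and 5 to 23 and 11 to 53 over the leave-outs. With the surrogate variable the calls of Psat1 and of 14 named genes around the pathway (Nck1, Creb3l3, Atf7, Aldh18a1, Mthfd2, Nars, Slc38a7, Gabarapl1, Bcl2l11, Lonp1, Sec13, Fnip1, Rragc and Ggct) were lost, and scaling by library size alone lost that of Ggct and no filter those of Lonp1 and Rragc. The surrogate variable runs partly with the group, as given above. The causes were not tested. No member called in the main fit changed sign in any setting. Ddit3, called only without control 2, was positive with the surrogate variable (log2 fold change 0.11). No paired analysis was possible because the labels give no replicate numbers that pair libraries across groups. Depth limits Psat1 and Nupr1 most, at 7 to 43 and 9 to 38 reads per library.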

Other observations

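Further genes of the lists were called, and are named here after their values were seen. In the endoplasmic reticulum list these were the chaperone Hspa5 (log2 fold change −0.75, SE 0.20), Pdia6 (−0.49, SE 0.14), the secreted stress factors Manf (−1.38, SE 0.27) and Creld2 (−1.34, SE 0.30), the ubiquitin ligase Syvn1 (−0.92, SE 0.23) and Ssr1 (−0.69, SE 0.16), all lower with sorbate. In the list of serine, glycine and one-carbon genes, Cth, which makes cysteine from cystathionine, was higher (0.84, SE 0.20), as was Shmt2 (0.42, SE 0.12), while Cbs, the enzyme before Cth, was lower (−0.55, SE 0.14). Slc7a2, a carrier of arginine and lysine, was higher (1.03, SE 0.25), as was Cebpa, a partner of ATF4 (0.66, SE 0.18), while Atf6b (−0.45, SE 0.13) and Farsb (−0.41, SE 0.11) were lower. Leave-outs of these genes one by one were not analysed here. Their edgeR adjusted p ran from 0.0103 (Manf) to 0.0450 (Atf6b).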
